A study of Mus musculus with 6 samples.

Results

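The genes described here build, load and control the 2 kinds of MHC molecule, class I and class II. They were measured in cells sorted as eosinophils from subcutaneous fat of Klf3-/- and WT mice. A gene was taken if its symbol starts with H2-, the prefix of the mouse MHC, or if it is on a short list of genes that cut, carry or load peptides, switch MHC genes on, or co-stimulate T cells. Of 48 genes so named, 45 had a probe set assigned to them alone, out of 17097 genes on the array, and they were read by 81 of 45037 probe sets. They comprise 16 genes of the class II pathway, 27 of the class I pathway, and the co-stimulatory ligands Cd80 and Cd86. B2m, which encodes the light chain shared by class I molecules, and Tap1 and Tap2, which encode the peptide transporter, had no probe set carrying 1 symbol alone and are not analysed here. Where a gene had several probe sets, the brightest over all 6 arrays stood for it.

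MHC class I molecules sit on nearly all nucleated cells and show peptides cut by the proteasome in the cytosol to CD8 T cells. MHC class II molecules are held mainly by dendritic cells, B cells and macrophages, and show peptides from engulfed protein to CD4 T cells. Both are raised by interferon-γ, class II through the coactivator CIITA and class I through its relative NLRC5. KLF3 is a zinc finger protein of the Krüppel-like family that represses transcription and binds CACCC-type sequences.

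The study used global Klf3-/- mice, whose mutant allele carries a neomycin insertion, and WT littermates, all males on the FVB/NJ background. All mice were 12 weeks old, untreated, fed chow and kept at 22 °C. The stromal vascular fraction (SVF) of inguinal fat was released with collagenase, and cells of high side scatter that were alive and positive for CD45, CD11b, F4/80 and Siglec-F were sorted. RNA of 3 Klf3-/- mice and 3 WT mice was hybridised to Affymetrix HT MG-430PM arrays, each mouse on an array of its own.

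With 3 arrays a genotype, precision is low. The medians of the deposited intensities differed by up to 1.94-fold between arrays, so log2 values were quantile-normalised, which gives all arrays the same distribution. The level of olfactory receptor probe sets was taken as background (95th percentile 5.10 log2 units). The markers that define eosinophils (Siglecf, Epx, Prg2, Il5ra and Ccr3) lay below that level, and of 12 eosinophil markers measured 5 lay above it, so the labelled cell type was not borne out by its defining markers. Of 6 Klf3 probe sets, 5 were higher in Klf3-/- (log2 fold change 0.69 to 2.83) and 1 was lower (-1.01). The sources do not place these probe sets against the insertion, so Klf3 does not settle the labels. Over all genes, limma with Benjamini-Hochberg adjustment called 0 of 17097 (0.0%), while 423 were lower and 618 higher at an unadjusted p under 0.05 (2.47% and 3.61%). Every comparison below is therefore given by its values, its limma test and this background.

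All 16 class II genes had a lower mean in Klf3-/- than in WT, by a median of -0.51 on the log2 scale (range -1.11 to -0.18), where the median of all genes was -0.04 and 55.2% of all genes lay below 0. H2-Eb1, H2-Ea and H2-DMa, all chain genes of class II or class II-like molecules, were lower at an unadjusted p under 0.05, that is 3 of 16 genes against 2.47% of all genes, and none was higher. With mouse number as a block H2-DMa no longer reached that p, leaving H2-Eb1 and H2-Ea, 2 of 16 against 3.5% of all genes in that model. None passed the adjusted threshold (limma, lowest adjusted p = 0.817). For 6 of the 16 (H2-Aa, H2-DMa, H2-Ea, H2-Ob, H2-Eb1 and Ifi30), each Klf3-/- array lay below each WT array, against 6.55% of all genes, and for none did each lie above (4.84% of all genes). All class II genes lay above the olfactory receptor level, and among the 11115 genes above it these background shares were 2.97% at an unadjusted p under 0.05 and 5.88% without overlap, with 54.2% below 0. These are bulk samples, in which fewer cells of a type and less RNA per cell cannot be told apart.

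**Figure D1:**
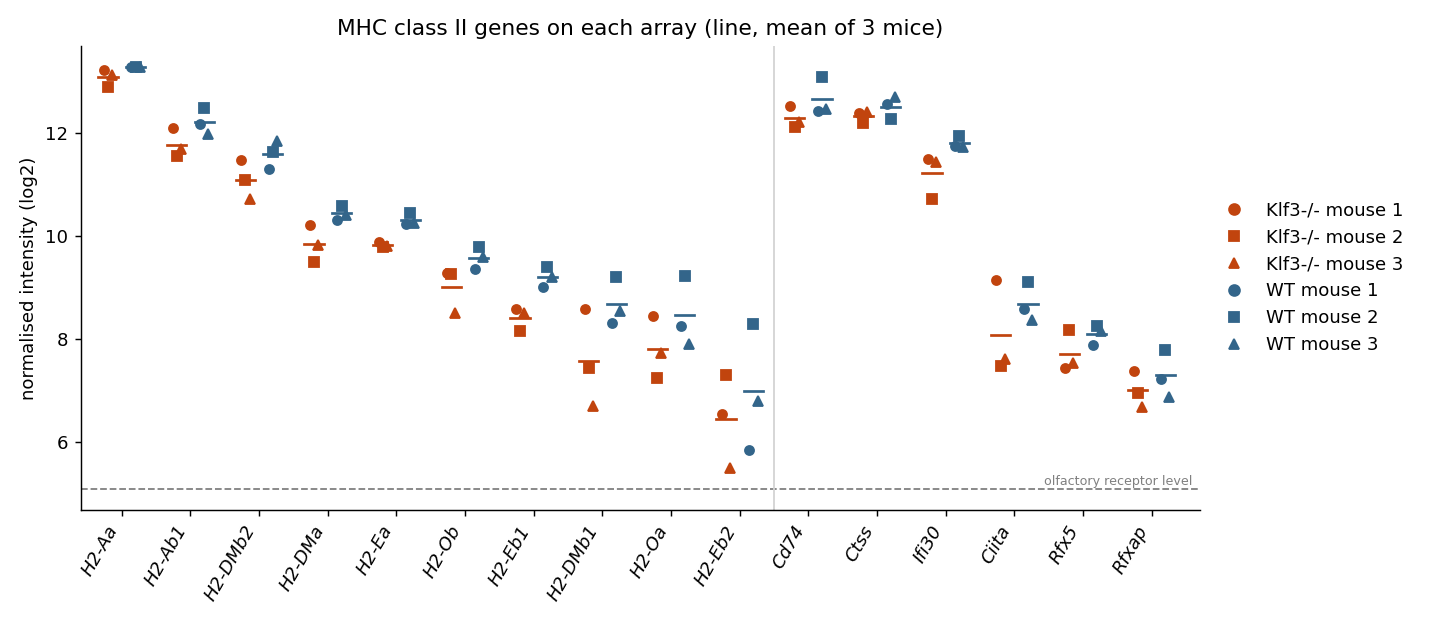
Normalised intensity (log2) of the 16 class II genes on each array, the chains left of the grey line and the processing and control genes right of it, with Klf3-/- mice in orange left of WT mice in blue. Short lines are means of 3 mice, and a dashed line marks 5.10, the level of olfactory receptor probe sets. WT mouse 2 was the highest array for 12 of the 16 genes, and the Klf3-/- arrays lay below all WT arrays for 6.

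The class II chain genes are known to share a promoter module in which RFX proteins bind the X box and NF-Y binds the Y box, with CIITA recruited to both. Windows from 250 bases before to 50 bases after the transcription start were taken from RefSeq (GRCm38.p6) and matched 32 of the 45 genes by symbol. They were searched on both strands for the Y box as TGATTGG and for the core of the X box as CTAGNAAC, where N is any base, and no match of one overlapped a match of the other. The Y box occurred in 7 of the 8 chain genes that had a window, all but H2-DMa, against 7.82% of all 32851 windows. It was not particular to class II, since 8 of 20 class I genes with a window held it too. These were Canx, H2-D1, H2-K1, H2-M10.1, H2-M9, H2-Q4, H2-T23 and Psmb9. The X box core occurred in H2-DMb1, H2-Eb1, H2-Ob and, nearer the start and outside the stretch shown, H2-Eb2, against 3.62% of all windows. It matched in 0 of the 20 class I genes. The stretches below show, for the chain genes with a Y box, that box and the bases before it, where an X box core matched in 3 of the 7, 5′ to 3′ on the strand of the gene, with matches in capitals.
H2-Eb1 (chr17:34305761-34305822, plus strand): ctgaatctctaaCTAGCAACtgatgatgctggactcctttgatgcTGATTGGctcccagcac
H2-DMb1 (chr17:34153083-34153144, plus strand): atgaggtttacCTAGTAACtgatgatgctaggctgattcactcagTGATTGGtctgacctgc
H2-Ob (chr17:34238801-34238862, plus strand): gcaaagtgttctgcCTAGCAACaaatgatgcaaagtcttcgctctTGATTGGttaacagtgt
H2-DMb2 (chr17:34145112-34145173, plus strand): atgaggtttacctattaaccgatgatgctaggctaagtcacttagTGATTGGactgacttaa
H2-Oa (chr17:34092289-34092350, plus strand): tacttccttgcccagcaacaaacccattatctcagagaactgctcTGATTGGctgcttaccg
H2-Eb2 (chr17:34325528-34325589, plus strand): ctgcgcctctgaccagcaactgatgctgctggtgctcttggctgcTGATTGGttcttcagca
H2-Aa (chr17:34287857-34287918, minus strand): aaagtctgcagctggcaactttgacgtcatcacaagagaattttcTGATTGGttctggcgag
In the order shown, the 7 genes had log2 fold changes of -0.79, -1.11, -0.56, -0.49, -0.65, -0.54 and -0.20. The 4 stretches without an X box match hold close variants of the core at a similar place, which the exact search does not count. A relation of the boxes to the fold changes was not tested. A match is a description of these letters, and a window without one says nothing of the factor.

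H2-Eb1, the β chain of the class II molecule I-E, had the smallest p of the 45 genes. Its values were 8.59, 8.16 and 8.51 in Klf3-/- mice 1, 2 and 3, against 9.02, 9.41 and 9.21 in WT mice 1, 2 and 3. The groups did not overlap, and each Klf3-/- mouse was low. The log2 fold change was -0.79 ± 0.21 (SE), a level 1.73-fold higher in WT (limma adjusted p = 0.817, exact permutation p = 0.1, the smallest that 3 against 3 arrays can give). H2-Eb1 was lower in Klf3-/- at an unadjusted p under 0.05 without any 1 array and in the model that blocks on mouse number, but not on the values as deposited.

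H2-Ea, the partner α chain of I-E, measured 9.89, 9.78 and 9.81 in Klf3-/- mice 1, 2 and 3, against 10.24, 10.46 and 10.25 in WT mice 1, 2 and 3. All Klf3-/- arrays lay within a narrow band below all WT arrays. The log2 fold change was -0.49 ± 0.17 (SE, limma adjusted p = 0.868), and a second probe set gave -0.77 (adjusted p = 0.888), also without overlap. RefSeq lists H2-Ea as a transcribed pseudogene in its C57BL/6J assembly. Whether the FVB/NJ mice used here make the chain, and so I-E, was not examined. H2-Eb2, a further β chain gene of this pair, measured 6.55, 7.31 and 5.49 in Klf3-/-, against 5.86, 8.30 and 6.80 in WT. It overlapped widely, and its log2 fold change of -0.54 ± 0.68 (SE, adjusted p = 0.964) turned to 0.12 without WT mouse 2.

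The chains of I-A, the other mouse class II molecule, were the H2-Aa α chain and the H2-Ab1 β chain. H2-Aa measured 13.22, 12.90 and 13.14 in Klf3-/-, against 13.29, 13.29 and 13.29 in WT. It held the same intensity rank, 4, on all WT arrays and ranks 5, 20 and 7 on the Klf3-/- arrays, so quantile normalisation gave WT identical values. The groups did not overlap on this scale but did as deposited, and the log2 fold change was -0.20 ± 0.18 (SE, adjusted p = 0.953). H2-Ab1 measured 12.09, 11.56 and 11.69 in Klf3-/-, against 12.17, 12.49 and 11.99 in WT. Only Klf3-/- mouse 1 reached into the WT range, above WT mouse 3, with a log2 fold change of -0.44 ± 0.23 (SE, adjusted p = 0.91), and 2 more H2-Ab1 probe sets gave -0.64 and -0.83.

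H2-DM is the class II-like molecule that lets peptides exchange in the endosome, with the α chain from H2-DMa and β chains from H2-DMb1 and H2-DMb2. H2-DMa measured 10.22, 9.50 and 9.82 in Klf3-/- mice 1, 2 and 3, against 10.32, 10.59 and 10.42 in WT mice 1, 2 and 3. The groups stood apart, by a small step between Klf3-/- mouse 1 and WT mouse 1 (log2 fold change -0.60 ± 0.23, SE, limma adjusted p = 0.883, and 0.705 with the block). H2-DMb1 had the largest class II difference, -1.11 ± 0.48 (SE, adjusted p = 0.904), with 8.59, 7.45 and 6.71 in Klf3-/-, against 8.31, 9.21 and 8.55 in WT. This gene was high in Klf3-/- mouse 1, above WT mice 1 and 3, while the other Klf3-/- mice were low. H2-DMb2 measured 11.48, 11.09 and 10.73 in Klf3-/-, against 11.30, 11.63 and 11.85 in WT. Again Klf3-/- mouse 1 lay above WT mouse 1, and the log2 fold change was -0.49 ± 0.26 (SE, adjusted p = 0.91). The H2-DMb1 and H2-DMb2 genes are close copies, so a share of their signal may be common to both.

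H2-O, which restrains H2-DM mainly in B cells, is made of the H2-Oa and H2-Ob chains. H2-Ob measured 9.29, 9.26 and 8.50 in Klf3-/- mice 1, 2 and 3, against 9.35, 9.79 and 9.59 in WT mice 1, 2 and 3. The groups did not overlap, and Klf3-/- mouse 3 was the lowest (log2 fold change -0.56 ± 0.27, SE, adjusted p = 0.91). H2-Oa measured 8.46, 7.24 and 7.73 in Klf3-/-, against 8.25, 9.23 and 7.90 in WT. Its Klf3-/- mouse 1 fell inside the WT range and WT mouse 2 was the highest, with a log2 fold change of -0.65 ± 0.43 (SE, adjusted p = 0.926).

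Of the genes that process or control class II, Cd74 encodes the invariant chain that plugs the groove until loading. Cd74 measured 12.52, 12.13 and 12.22 in Klf3-/- mice 1, 2 and 3, against 12.44, 13.08 and 12.47 in WT mice 1, 2 and 3. In Klf3-/- mouse 1 it exceeded WT mice 1 and 3, and WT mouse 2 was high (log2 fold change -0.38 ± 0.24, SE, adjusted p = 0.923). Ctss, the cathepsin that trims the invariant chain, averaged 12.34 ± 0.12 in the Klf3-/- mice and 12.52 ± 0.22 in the WT mice (SD, n = 3 each), with a log2 fold change of -0.18 (adjusted p = 0.957). Ifi30, the lysosomal thiol reductase GILT that opens disulphide bonds of antigens, measured 11.51, 10.72 and 11.44 in Klf3-/-, against 11.76, 11.94 and 11.73 in WT. All Klf3-/- arrays were below all WT arrays, with mouse 2 the lowest, and the log2 fold change was -0.58 ± 0.25 (SE, adjusted p = 0.901).

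Ciita, the master coactivator of class II genes, measured 9.15, 7.47 and 7.61 in Klf3-/- mice 1, 2 and 3, against 8.59, 9.11 and 8.38 in WT mice 1, 2 and 3. Klf3-/- mouse 1 had the highest value of all 6 arrays and the other Klf3-/- mice the lowest, so the log2 fold change of -0.61 ± 0.46 (SE, adjusted p = 0.944) rested on mice 2 and 3. The other Ciita probe sets gave -0.88 and -0.34. The X box factor subunits Rfx5 and Rfxap had log2 fold changes of -0.38 ± 0.25 (SE, adjusted p = 0.93) and -0.29 ± 0.30 (SE, adjusted p = 0.954), both with overlap, and the mean of the Rfxap probe sets, one of them below the olfactory receptor level, turned to 0.10.

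The class II direction did not rest on the scale. On the values as deposited the median of all genes moved by 0.17, to 0.13, and relative to the median of all genes the class II median was -0.48 after quantile normalisation, -0.46 as deposited and -0.46 after centring each array on its median. The 16 class II genes were below 0 on each of these scales, but as deposited the groups overlapped for all 45 genes and 0 class II genes reached an unadjusted p under 0.05. On that scale 54 of 17097 genes were lower and 719 higher without overlap, and 0.18% of all genes were lower at that p. Few genes of any kind were thus lower as deposited. After median centring 4 class II genes were lower without overlap (H2-DMa, H2-Ea, H2-Eb1 and Ifi30), where 1267 of 17097 genes were. Individual arrays weighed on the counts. Without Klf3-/- mouse 1 the class II median was -0.64. In that fit 8 of the 16 genes were lower at an unadjusted p under 0.05 (H2-Ab1, H2-DMb2, H2-DMa, H2-Ea, H2-Eb1, H2-DMb1, Ciita and Ifi30), against 2.75% of all genes. Without WT mouse 2 the median was -0.35, 15 of 16 genes were below 0 and H2-Eb1 alone reached that p, as it alone did without Klf3-/- mouse 3, where the median was -0.36. Of the 25 class II probe sets above the olfactory receptor level, 24 were lower in Klf3-/-. The exception was a second H2-Aa probe set at 0.24 (adjusted p = 0.969), of a type that may bind related transcripts. The probe sets chosen for H2-Aa, H2-Ab1 and H2-Ea are of such a type too.

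**Figure D2:**
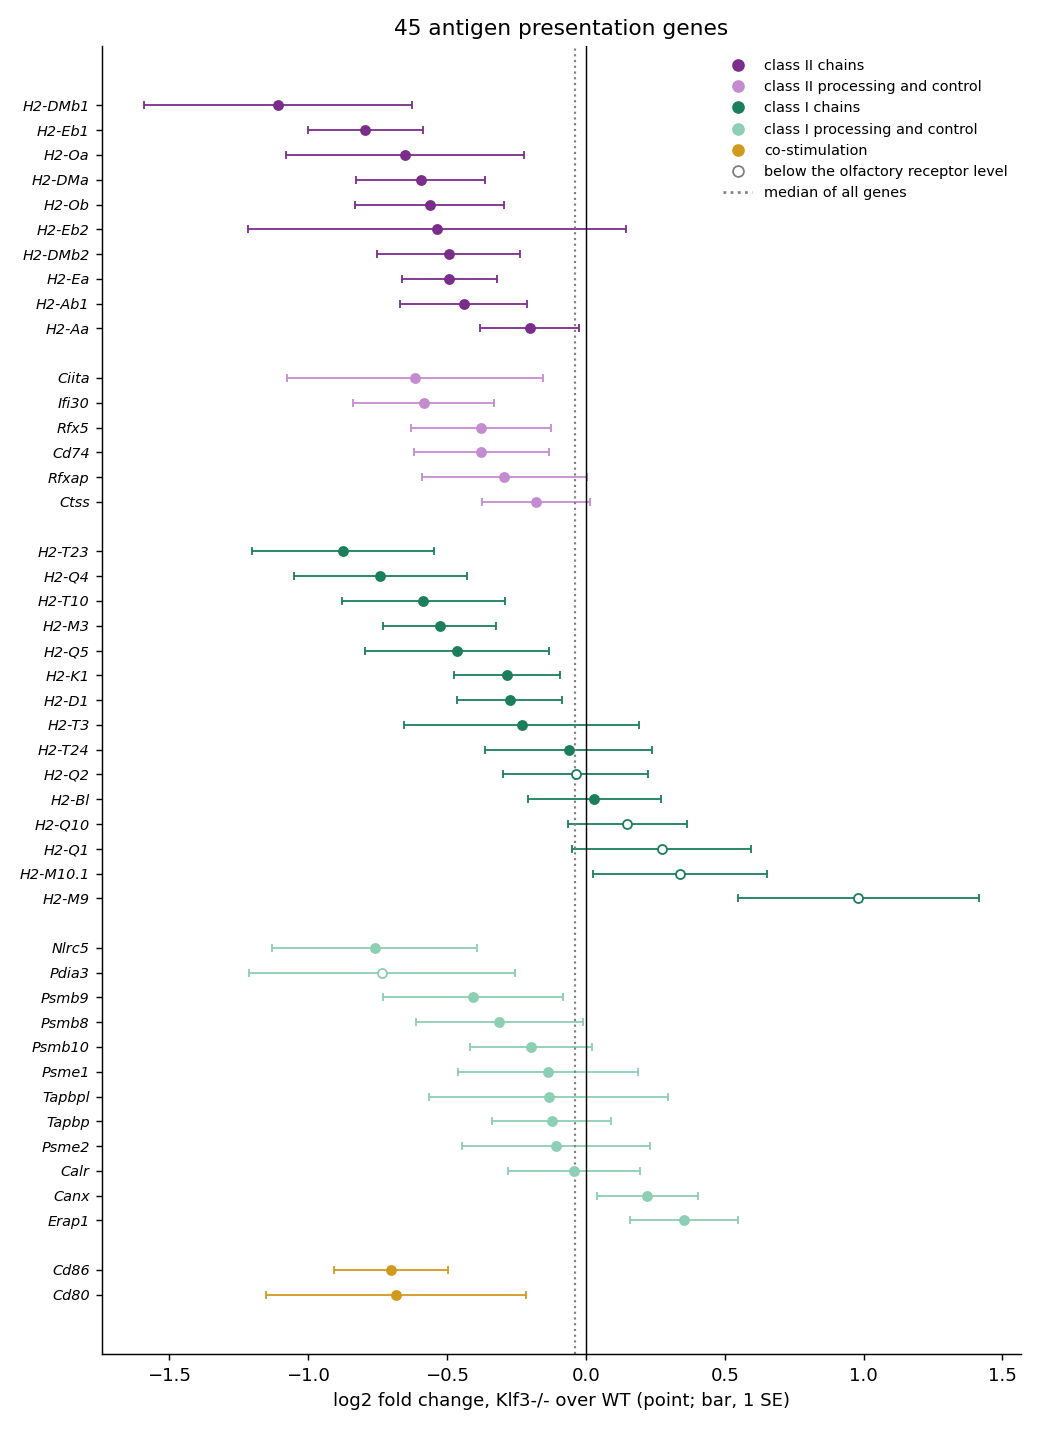
Log2 fold change, Klf3-/- over WT, of the 45 genes with 1 SE, grouped by role and ordered within each role, with genes below the olfactory receptor level as open circles. The dotted line is the median of all genes, -0.04. The 16 class II genes all lie left of 0, and the class I genes spread from -0.87 to 0.98.

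Class I genes lay on both sides of 0. Of 27, 20 had a log2 fold change below 0 and 7 above it (median -0.14, range -0.87 to 0.98), but on the values as deposited 11 were below 0 and 16 above and the median was 0.06, and after median centring 19 were below 0. Relative to the median of all genes, the class I median was -0.10, -0.07 and -0.07 on the same 3 scales. H2-M3, H2-Q4 and H2-T23, all class I heavy chains, were lower at an unadjusted p under 0.05, 3 of 27 against 2.47% of all genes. With mouse number as a block H2-T10 and Nlrc5 joined them, that is 5 of 27 against 3.5% of all genes in that model. None was higher in either model, and none passed the adjusted threshold (limma, lowest adjusted p = 0.868). Only H2-M3 and H2-T23 had groups that did not overlap, 2 of 27 against 6.55% of all genes, a share close to the background. After median centring H2-D1 was instead the only class I gene lower without overlap, and 1 was higher without overlap. On that scale 1267 and 749 of 17097 genes were lower and higher without overlap. Without Klf3-/- mouse 3, WT mouse 1 or WT mouse 2, 0 class I genes were lower at an unadjusted p under 0.05, and H2-M9, which lay below the olfactory receptor level, was higher at that p without Klf3-/- mouse 2 or WT mouse 2. Of the 21 class I genes above the olfactory receptor level, 18 were below 0, with a median of -0.23 where genes above that level had -0.04.

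**Figure D3:**
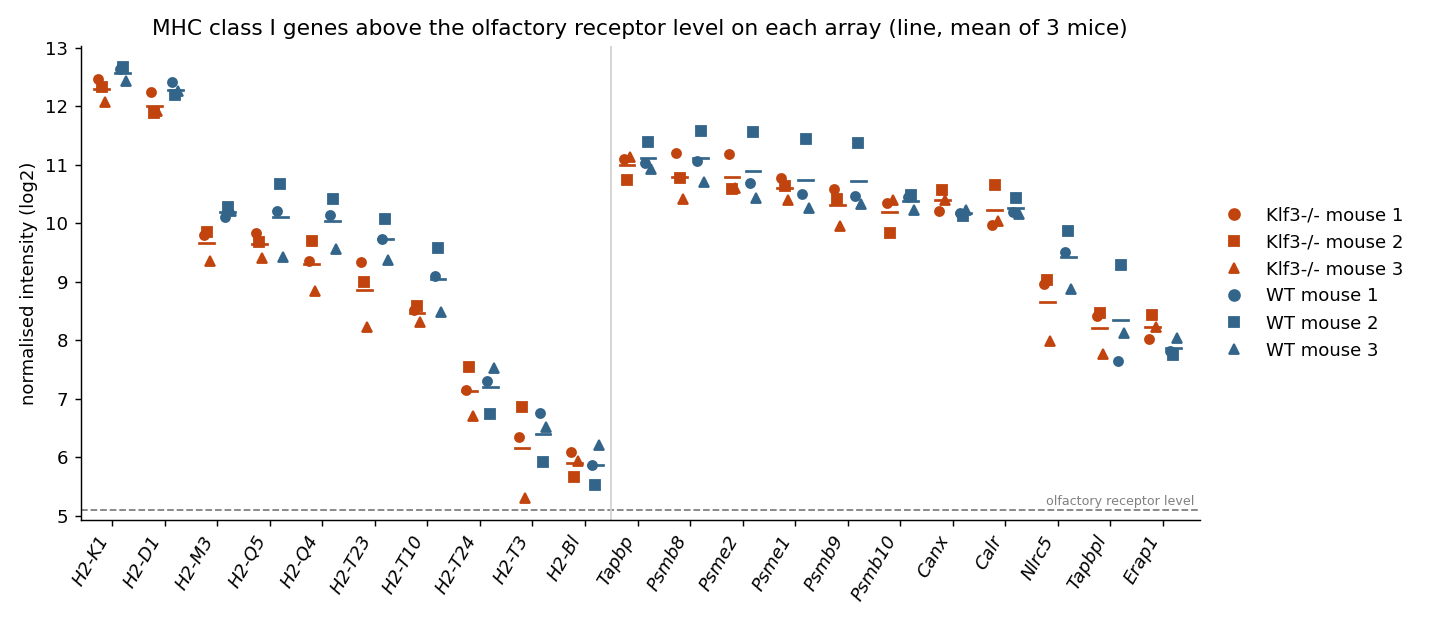
Normalised intensity (log2) of the 21 class I genes above the olfactory receptor level on each array, heavy chains left of the grey line and processing and control genes right of it, Klf3-/- mice in orange left of WT mice in blue. Short lines are means of 3 mice, and a dashed line marks the level of olfactory receptor probe sets. WT mouse 2 was the highest array for 14 of the 21 genes and Klf3-/- mouse 3 the lowest for 11.

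H2-K1 and H2-D1 encode the classical class I heavy chains, which present peptides to CD8 T cells. Their promoters are known to carry an enhancer bound by NF-κB. Searched on both strands as GGGATTCCC, this site was found in H2-K1 and H2-D1 alone among the 32 genes with a window, and in 0.353% of all windows. The 2 stretches, shown because the promoters are near copies as the coding sequences are, are given with the site in capitals (GRCm38.p6).
H2-K1 (chr17:34000429-34000477, minus strand): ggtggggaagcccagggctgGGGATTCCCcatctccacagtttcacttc
H2-D1 (chr17:35262904-35262952, plus strand): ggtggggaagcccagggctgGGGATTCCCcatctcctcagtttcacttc
H2-K1 measured 12.47, 12.33 and 12.07 in Klf3-/-, against 12.63, 12.66 and 12.43 in WT. WT mouse 3 lay just below Klf3-/- mouse 1, and the log2 fold change was -0.28 ± 0.19 (SE, adjusted p = 0.932). H2-D1 measured 12.24, 11.88 and 11.92 in Klf3-/-, against 12.41, 12.19 and 12.25 in WT. Klf3-/- mouse 1 lay above WT mouse 2, and the log2 fold change was -0.27 ± 0.19 (SE, adjusted p = 0.938).

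Probes for these polymorphic and nearly identical genes can bind several of them, and they were not designed on the FVB/NJ haplotype, so single heavy chain values are uncertain. The probe sets chosen for H2-K1 and H2-D1 carry the suffix that Affymetrix gives to probes matching several transcripts. The other H2-K1 probe sets gave log2 fold changes of -0.56, -0.49 and -0.05. Those for H2-D1 gave -0.61, -0.62 and -0.43, and the only H2-D1 probe set without that suffix, whose mean lay below the olfactory receptor level, gave 0.42.

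Among the non-classical heavy chains, H2-M3 presents formylated bacterial peptides and H2-T23 is Qa-1, the ligand of the inhibitory receptor NKG2A. H2-M3 measured 9.80, 9.85 and 9.36 in Klf3-/- mice 1, 2 and 3, against 10.10, 10.28 and 10.21 in WT mice 1, 2 and 3. The groups did not overlap (log2 fold change -0.53 ± 0.20, SE, limma adjusted p = 0.879). H2-T23 measured 9.34, 8.995 and 8.23 in Klf3-/- mice 1, 2 and 3, against 9.74, 10.08 and 9.38 in WT mice 1, 2 and 3. Its WT mouse 3 stood just above Klf3-/- mouse 1, and the log2 fold change was -0.87 ± 0.33 (SE, limma adjusted p = 0.868). A dim second H2-T23 probe set gave 0.01 (adjusted p = 0.998).

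The H2-T23 window also held a match to the letters of an interferon-stimulated response element. This was searched on both strands as GAAANNGAA, which occurred in 8.56% of all windows. Exact matches were found in 3 of 20 class I genes with a window (Erap1, H2-T23 and Psme1) and in 1 of 11 class II genes (Ctss). The H2-K1 and H2-D1 stretches above end in similar letters (tttcacttc), which the exact search does not count. A window without a match therefore says nothing of the element. The H2-T23 match lies on the opposite strand, in capitals here (GRCm38.p6).
H2-T23 (chr17:36032796-36032844, minus strand): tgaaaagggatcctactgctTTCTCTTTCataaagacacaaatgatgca
Of the 4 genes with this match, H2-T23 had the log2 fold change -0.87, Erap1 0.35, Psme1 -0.14 and Ctss -0.18. A relation of the match to the fold changes was not tested.

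H2-Q4, a heavy chain gene of the Qa family, measured 9.35, 9.70 and 8.84 in Klf3-/-, against 10.15, 10.41 and 9.55 in WT. Klf3-/- mouse 2 lay above WT mouse 3, while within each mouse number the Klf3-/- value was the lower (log2 fold change -0.74 ± 0.31, SE, adjusted p = 0.901, and 0.597 with the block). H2-T10, listed by RefSeq as a transcribed pseudogene in C57BL/6J, had 8.53, 8.58 and 8.31 in Klf3-/-, against 9.10, 9.58 and 8.48 in WT. Its log2 fold change was -0.59 ± 0.29 (SE, adjusted p = 0.91, and 0.698 with the block). H2-Q5, H2-T24, H2-T3 and H2-Bl overlapped between the groups, with log2 fold changes of -0.46, -0.06, -0.23 and 0.03. H2-Q5 and H2-Bl are also transcribed pseudogenes in RefSeq. The remaining 5 heavy chain genes (H2-M10.1, H2-Q1, H2-Q2, H2-Q10 and H2-M9) had means below the olfactory receptor level, so their log2 fold changes of -0.04 to 0.98 are not read as levels.

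Nlrc5, the coactivator of class I genes, measured 8.96, 9.03 and 7.99 in Klf3-/- mice 1, 2 and 3, against 9.52, 9.88 and 8.88 in WT mice 1, 2 and 3. Within each mouse number the Klf3-/- value was the lower, although Klf3-/- mice 1 and 2 lay above WT mouse 3 (log2 fold change -0.76 ± 0.37, SE, limma adjusted p = 0.91, and 0.601 with the block). Psmb8, Psmb9 and Psmb10 are the catalytic subunits of the immunoproteasome, the form that replaces the standard proteasome under interferon-γ. Psmb8 measured 11.20, 10.77 and 10.42 in Klf3-/-, against 11.06, 11.58 and 10.70 in WT. Psmb9 measured 10.58, 10.41 and 9.96 in Klf3-/-, against 10.46, 11.37 and 10.33 in WT. In both, WT mouse 2 was the highest array and Klf3-/- mouse 3 the lowest, and the log2 fold changes were -0.31 ± 0.30 (SE, adjusted p = 0.954) and -0.41 ± 0.32 (SE, adjusted p = 0.949). Psmb10 averaged 10.19 ± 0.31 in the Klf3-/- mice and 10.39 ± 0.15 in the WT mice (SD, n = 3 each), with a log2 fold change of -0.20.

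The other 8 class I processing genes overlapped between the genotypes, and none reached an unadjusted p under 0.05 in either model. Psme1 and Psme2, the PA28 caps of the proteasome, had log2 fold changes of -0.14 and -0.11, Tapbp (tapasin, which bridges class I to the peptide transporter) had -0.12, and its relative Tapbpl had -0.13. The endoplasmic reticulum chaperones Calr and Canx had -0.04 and 0.22, and Erap1, the peptidase that trims class I peptides, had 0.35 ± 0.19 (SE, adjusted p = 0.91). A second Erap1 probe set gave -0.40, with all Klf3-/- arrays below all WT arrays, so the Erap1 probe sets disagreed in direction. Pdia3, the oxidoreductase of the loading complex, was read below the olfactory receptor level (-0.73).

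Cd86 and Cd80 are the ligands of CD28 and CTLA-4 on T cells. Cd86 measured 9.97, 9.51 and 9.62 in Klf3-/- mice 1, 2 and 3, against 10.41, 10.57 and 10.23 in WT mice 1, 2 and 3. The groups were well apart, with a log2 fold change of -0.70 ± 0.21 (SE, limma adjusted p = 0.854, exact permutation p = 0.1). A second Cd86 probe set gave -0.84 (adjusted p = 0.868), also without overlap. Cd80 measured 6.34, 7.52 and 6.62 in Klf3-/- mice 1, 2 and 3, against 7.28, 8.42 and 6.85 in WT mice 1, 2 and 3. Its groups overlapped, but each Klf3-/- mouse was below the WT mouse of its number, and the log2 fold change of -0.69 ± 0.47 (SE) had an adjusted p = 0.936 without and 0.679 with the block. All 6 probe sets of Cd80 and Cd86 were lower in Klf3-/-.

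Class II and class I genes varied strongly among mice of 1 genotype. Averaged over the 16 class II genes, the deviation from the mean of all arrays was 0.07, -0.36 and -0.48 log2 units in Klf3-/- mice 1, 2 and 3, and 0.05, 0.57 and 0.15 in WT mice 1, 2 and 3. Klf3-/- mouse 1 thus matched WT mouse 1 in its class II level, and the widest gap was that between Klf3-/- mice 2 and 3 and WT mouse 2. Over the 21 class I genes above the olfactory receptor level the deviations were 0.01, -0.02 and -0.39 in Klf3-/-, and 0.10, 0.37 and -0.06 in WT.

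Markers of cells that carry much class II moved with some of these arrays. Of 12 dendritic cell markers with no H2- gene among them, all above the olfactory receptor level, 8 were below 0 and 4 above, with deviations of -0.36, -0.03 and -0.07 in Klf3-/- and -0.12, 0.66 and -0.09 in WT, so that WT mouse 2 was high here too. Their summed linear signal was 5740.5 to 10290.1 in Klf3-/- and 6199 to 9935 in WT. The 4 markers above 0 were Clec10a, Irf4, Dpp4 and Cd209a (0.68, 0.51, 0.45 and 0.28). Only 1 of the 12, Itgax, had groups that did not overlap, where 6.55% of all genes were lower without overlap. Itgax, which encodes the dendritic cell and macrophage integrin CD11c, measured 7.67, 7.51 and 7.16 in Klf3-/-, against 8.89, 9.57 and 8.94 in WT. All Klf3-/- arrays were low (log2 fold change -1.69 ± 0.26, SE, limma adjusted p = 0.6). The part of these cells in the class II values was not tested.

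B cell markers were high in Klf3-/- mouse 1 and in WT mouse 3. All 11 were above the olfactory receptor level, 10 were below 0 (median -0.46), and their deviations were 0.43, -0.48 and -0.52 in Klf3-/- and 0.28, -0.15 and 0.43 in WT, with summed signals of 2343 to 4664 in Klf3-/- and 3009 to 4770 in WT. Klf3-/- mouse 1 was the highest array for 4 of the 11 and WT mouse 3 for 6, while WT mouse 2, the highest array in class II level, lay below the mean. Among the Klf3-/- mice, mouse 1 had the highest mean deviation of B cell markers, of class II genes (0.07) and of 6 T cell markers (0.89). Ciita, Cd74 and H2-DMb1 were highest in mouse 1 among these mice, while Ebf1 and Ctss were not. Macrophage markers ran otherwise. Of 16, 12 were above 0, their summed signal was 20081 to 39387 in Klf3-/- and 14036 to 25625 in WT, and their mean deviation was highest in Klf3-/- mouse 3 (0.90) and lowest in WT mouse 2 (-0.72), the arrays at the opposite ends for class II. Stromal markers were all above 0 (10 of 10, median 0.96), with summed signals of 16393 to 26692 in Klf3-/- and 10079 to 17321 in WT. The part of each of these cell types in the antigen presentation values was not tested.

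**Figure D4:**
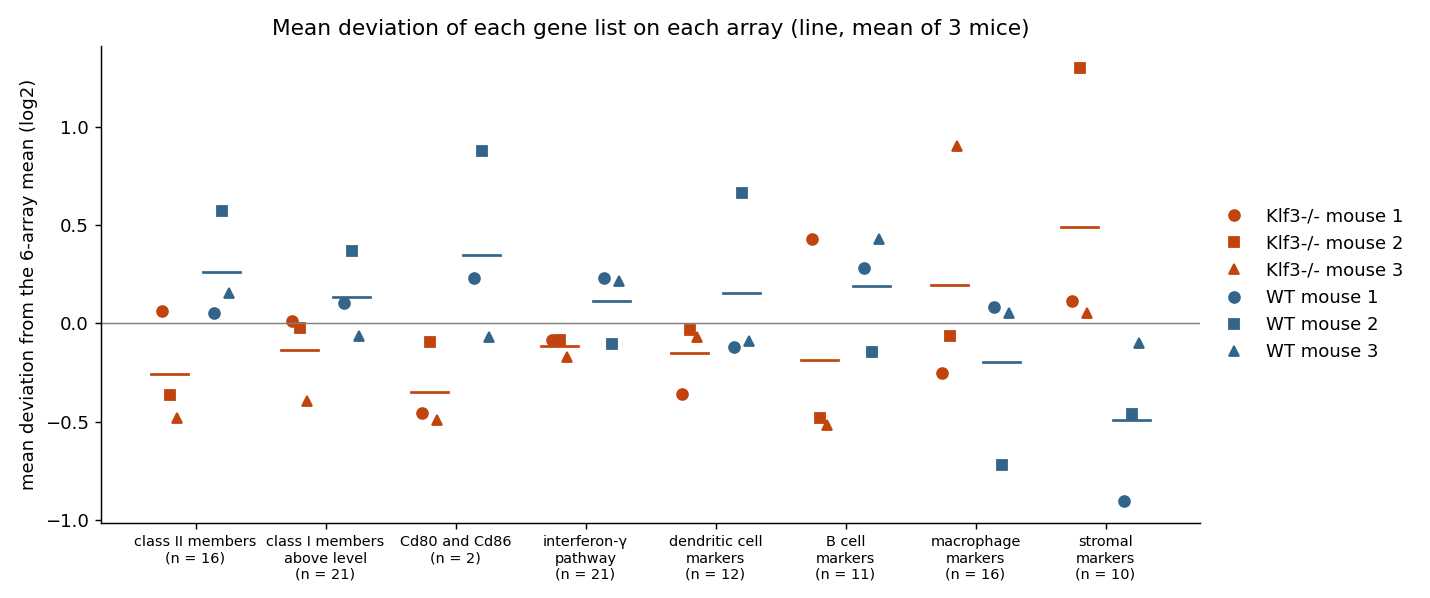
Mean deviation (log2) of each gene list from its mean over the 6 arrays, by mouse, with Klf3-/- in orange left of WT in blue and short lines for the mean of 3 mice. WT mouse 2 was high for class II genes (0.57), class I genes (0.37) and dendritic cell markers (0.66), and Klf3-/- mouse 1 and WT mouse 3 were high for B cell markers (0.43 each).

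The other genes of antigen presentation were taken as 5 lists with 64 measured genes. Of these, 39 were below 0 and 25 above (median -0.09), 5 were lower and 2 higher at an unadjusted p under 0.05 (3 and 3 with the block), and none passed the adjusted threshold in limma. Over all genes 2.47% were lower and 3.61% higher at that p (3.5% and 4.45% with the block). Of 16 genes for class II promoter factors and trafficking, 10 were below 0 and 6 above, with Cd83 the only one at an unadjusted p under 0.05. Cd83, which shields class II on the cell surface from MARCH1, measured 11.21, 11.12 and 10.95 in Klf3-/-, against 11.58, 11.92 and 11.38 in WT. All Klf3-/- arrays were below all WT arrays (log2 fold change -0.53 ± 0.21, SE, limma adjusted p = 0.883). Nfya, the Y box factor subunit, had -0.56 ± 0.27 (SE, adjusted p = 0.91), and Marchf8, a ubiquitin ligase of class II and CD86, had 0.54 ± 0.23 (SE, adjusted p = 0.901), both without overlap. Of 10 standard proteasome and peptidase genes, 8 were below 0 (median -0.14), and none reached an unadjusted p under 0.05.

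The interferon-γ pathway was split. Of 21 genes, 12 were below 0 and 9 above (median -0.19), but 9 were below 0 and 12 above on the values as deposited. The chemokines Cxcl9 and Cxcl10, which draw CXCR3-bearing T cells, were the only ones at an unadjusted p under 0.05. Cxcl9 measured 8.65, 7.95 and 7.59 in Klf3-/- mice 1, 2 and 3, against 10.17, 9.97 and 9.43 in WT mice 1, 2 and 3. Each Klf3-/- value lay well below each WT value (log2 fold change -1.80 ± 0.33, SE, limma adjusted p = 0.663). Cxcl10 measured 6.21, 6.20 and 7.19 in Klf3-/-, against 7.33, 8.18 and 7.75 in WT. Its groups stood apart as well (log2 fold change -1.22 ± 0.35, SE, adjusted p = 0.849), and those of Irf8, the myeloid interferon regulatory factor, and of the guanylate-binding protein Gbp4 overlapped, at -0.71 (adjusted p = 0.91) and 0.52 (adjusted p = 0.917). Averaged over the 21 genes, WT mouse 2 was below the mean of all arrays (-0.11). It was the highest array for 4 of the 21, Irf1 and Irf8 among them, and the lowest for 10. Of the 45 genes of the set it was the highest for 29. A relation of the pathway to the set was not tested.

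CACCC-type sequences, which Krüppel-like factors bind, were searched on both strands as CCNCNCCC. They occurred in 4 of 11 class II genes with a window (H2-DMa, H2-DMb1, H2-DMb2 and Ifi30) and in 13 of 20 class I genes, against 49.5% of all windows. Matches of this motif overlapped each other in Cd80, H2-DMa, Psmb8 and Psme2, as those of the interferon element did in Erap1, and no matches of different motifs overlapped.

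**Figure D5:**
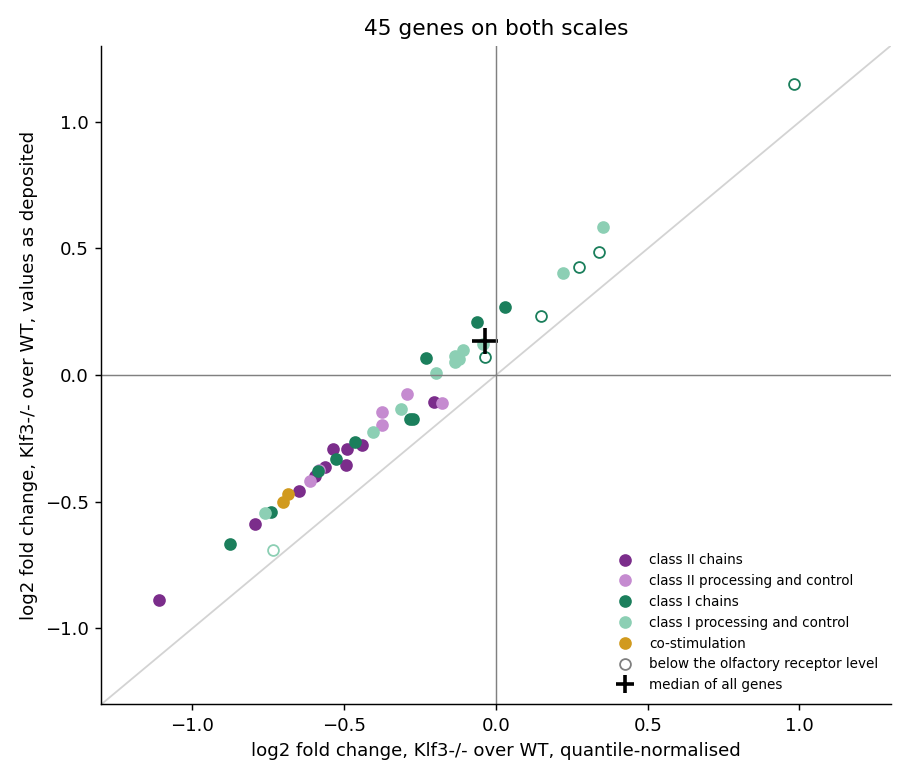
Log2 fold change, Klf3-/- over WT, of the 45 genes after quantile normalisation (horizontal axis) and on the values as deposited (vertical axis), coloured by role, with the grey line where both are equal and a cross at the median of all genes (-0.04 and 0.13). Nearly all points lie above the line, the class II genes stay below 0 on both axes, and the class I median is -0.14 on one axis and 0.06 on the other.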

How the data were processed

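RNA of sorted cells from 3 Klf3-/- and 3 WT mice was amplified and hybridised by the authors, who processed the arrays in Partek Genomics Suite version 7 and name RMA in a legend. The table they deposited holds a linear intensity for each of 45037 probe sets, with medians that differed between arrays. Intensities were converted to log2, quantile-normalised between arrays and fitted with limma 3.58.1 (lmFit, eBayes) in R 4.3.3. Genotype was the sole factor, with Benjamini-Hochberg adjustment over all probe sets. The methods name an analysis of variance whose second factor is not stated. Symbols came from the platform annotation (28898 probe sets with 1 symbol, 551 with several, 15588 with none), and probe sets with several symbols were left out. The brightest probe set stood for each gene.

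Mouse numbers were taken as a possible pairing of the genotypes, which the main fit did not use. The labels call the mice litter-matched but do not state the pairing outright. The deviations of same-numbered mice correlated weakly (r = 0.168, 0.225 and 0.207, against -0.179 to -0.0128 for different numbers). Deviations within a genotype sum to 0, so the negative values follow in part from the positive ones. In both genotypes the deposited median was highest in mouse 2 and lowest in mouse 3, so litter and processing cannot be told apart. The block on mouse number was fitted as an alternative, beside the other alternatives below. Single values also had exact two-sided permutation tests, for which 3 against 3 arrays allow no p under 0.1. Named were all genes of the set other than H2- class I genes below the olfactory receptor level, which are given by range, and the 2 to 4 smallest p-values of each related list. The genes and lists were chosen with earlier results of these data known. The fit was tested on simulated data. Figures were drawn with matplotlib 3.10.9.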

Additional observations from a re-analysis of the deposited data

How the results depend on the processing

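The counts at an unadjusted p under 0.05 depended on the scale, the model and single arrays. As deposited, 0 class II, 0 class I and 0 co-stimulatory genes were lower, 1 related gene (Cxcl9) was lower and 1 (Fcgrt) higher, and the medians of class I (0.0623) and of the related genes (0.0728) turned positive. Over all genes 0.18% were lower on that scale. After median centring 0 class I genes were lower. With the replicate block 5 class I genes, 2 co-stimulatory genes and 3 related genes were lower, and the class II count was 2. With limma's trend and robust options 6 class II genes were lower, against 2.16% of all genes, and 1 class I gene (H2-M9) was higher. One-way analysis of variance gave 1 class I gene lower (H2-M3) and 0 related genes higher, leaving out dim probe sets gave 1 class I gene (H2-T23) and 3 related genes lower, and leaving out probe sets with the suffixes of several transcripts gave 1 related gene higher. Leaving out each array in turn gave 1 to 8 class II genes lower, 0 to 5 class I genes lower and 0 to 1 higher, 2 to 5 related genes lower and 1 to 4 higher, and a median of the related genes from -0.16 to -0.0692. Over all genes 1.85% to 2.75% were lower in these fits. No gene of the set passed the adjusted threshold (limma, and the one-way analysis of variance) under any alternative.

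Of 556 log2 fold changes of 40 named genes under the alternatives, 526 kept their sign and 26 genes never reversed. As deposited, H2-T24 was 0.21, H2-T3 0.0692, Tapbp 0.0623, Tapbpl 0.0747, Psmb10 0.0077, Psme1 0.0515, Psme2 0.10 and Calr 0.12. Median centring gave H2-T24 0.0038. The mean of all probe sets gave Tapbpl 0.34, Erap1 -0.0233 and Rfxap 0.10, and leaving out suffixed probe sets gave H2-D1 0.42, H2-T3 0.11 and Canx -0.0751 and left no probe set for H2-Aa and H2-K1. Without single arrays, H2-T24 ranged from -0.29 to 0.15, H2-Eb2 from -1.10 to 0.12, H2-T3 from -0.58 to 0.20, H2-Bl from -0.14 to 0.21, Tapbp from -0.22 to 0.0150, Tapbpl from -0.49 to 0.33, Psme1 from -0.37 to 0.22, Psme2 from -0.34 to 0.23 and Calr from -0.26 to 0.0802. The causes were not tested. Dim genes such as H2-M9 and Pdia3 lie near background, and levels of the 3 genes without a probe set of their own are not analysed here.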

Other observations

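Of 6 measured MHC class I-like molecules encoded outside the MHC locus, 3 had a higher mean and 3 a lower mean in Klf3-/-. At an unadjusted p under 0.05, 2 were higher, against 3.61% of all genes, and 0 were lower, and none passed the adjusted threshold. Fcgrt, the heavy chain of the neonatal Fc receptor, measured 9.43, 10.06 and 11.10 in Klf3-/-, against 8.89, 8.98 and 8.96 in WT, with a log2 fold change of 1.25 ± 0.40 (SE, limma adjusted p = 0.862). Procr, the endothelial protein C receptor, measured 10.02, 10.55 and 9.72 in Klf3-/-, against 9.17, 9.53 and 9.50 in WT, with a log2 fold change of 0.70 ± 0.26 (SE, limma adjusted p = 0.868). The Klf3-/- arrays were above the WT arrays for both, with Klf3-/- mouse 3, the highest array for macrophage markers, also the highest for Fcgrt. For Azgp1, below the olfactory receptor level, each Klf3-/- array lay below each WT array, with a log2 fold change of -0.42 ± 0.21 (SE, limma adjusted p = 0.91).

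Of 11 further co-stimulatory and co-inhibitory genes, 6 were below 0 and 5 above. Havcr2, which encodes TIM-3, measured 8.09, 7.13 and 7.55 in Klf3-/-, against 8.01, 9.02 and 8.56 in WT, with a log2 fold change of -0.94 ± 0.34 (SE, limma adjusted p = 0.868), and Klf3-/- mouse 1 lay above WT mouse 1. Pdcd1lg2, which encodes PD-L2, was lower (-0.47, adjusted p = 0.901) but below the olfactory receptor level. Brd2, a gene within the class II block that makes no MHC chain, had -0.34 ± 0.24 (SE, adjusted p = 0.939) with overlap.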
